A study of Homo sapiens with 9 samples.

Results

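The 6 arrays of A549 cells carrying an RNA interference oligo against MED23 or ELK1 were compared with the 3 arrays of cells carrying a control oligo. Together these make up all 9 arrays of the series. Arrays were chosen by their titles alone, so that each knockdown contributed 3 arrays. The contrast was the mean of the si-Med23 mean and the si-Elk1 mean, minus the si-Ctrl mean, and genes were followed where all 6 knockdown arrays lay on the same side of all 3 control arrays. The question this answers is which transcripts lay on the same side of control in every array, whichever of the 2 proteins was targeted. A gene can do so without passing a test in each knockdown taken singly. Against control, si-Elk1 alone passed for 537 of 12616 genes.

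A549 is a lung adenocarcinoma line with an activated RAS gene. All cells were grown in the same serum-containing medium with no further treatment. The si-Ctrl group has 3 replicates, while the replicates of si-Med23 and of si-Elk1 carry oligos A, B and C, which the series describes as separate lines. Each knockdown replicate is therefore a different oligo, and p-values measure the spread between these arrays, which includes the spread between oligos. No label says that the control arrays came from separate cultures. Because every knockdown array was set against the same 3 control arrays, a response shared by both knockdowns and a property of the control cells cannot be told apart.

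Mediator is the large complex that carries signals from DNA-bound transcription factors to RNA polymerase II, and MED23 is a subunit of its tail. ELK1 is an ETS-family factor that binds with SRF at serum response elements. It is phosphorylated by ERK at the end of the RAS-RAF-MEK-ERK cascade, and its phosphorylated activation domain contacts MED23. RNA interference oligos lower the transcript they match and can also alter other transcripts, which is why several oligos per target are used.

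The measurement is the signal of 1 probe set per gene on a linear scale, analysed as log2(value + 1), and all levels and changes below are on this log2 scale. A total of 12616 genes were bright enough to be tested. Changes are given ± the standard error of the fit over 9 arrays, with p-values adjusted over all genes tested. A gene is called here when its pooled contrast passed an adjusted p of 0.05 and all 6 knockdown arrays lay on one side of control.

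The knockdowns were first read on their own targets. MED23 read 9.27, 9.05 and 9.08 in control, 6.79, 6.19 and 7.06 with si-Med23, and 8.87, 9.02 and 8.18 with si-Elk1, in the order of oligos A, B and C. All 3 si-Med23 arrays were far below control, while si-Elk1 oligo B only just cleared the lowest control array, with a gap of -0.03. The pooled change of MED23 was -1.45 ± 0.23 (adjusted p = 0.00664), made of -2.46 with si-Med23 and -0.44 with si-Elk1. With the 6 knockdown arrays fitted as 1 group, its adjusted p was 0.138 (limma). On the other probe sets of MED23 the change was -2.21, -1.36, -3.44 and -0.76 with si-Med23. In the same order it was 0.29, 0.38, -0.56 and -0.12 with si-Elk1.

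ELK1 read 9.36, 9.61 and 9.29 in control, 9.98, 10.36 and 9.54 with si-Med23, and 7.07, 7.15 and 7.83 with si-Elk1. Only the si-Elk1 arrays were low, and 2 of the si-Med23 arrays were above every control array, so ELK1 was not called although its pooled change of -0.77 ± 0.22 passed (adjusted p = 0.0351). That p passed the threshold in some fits only: leaving out any of 7 arrays singly gave adjusted p values of 0.0513 to 0.114. On the other probe sets of ELK1 the change was -1.08 and -0.85 with si-Elk1, and 0.01 and -0.35 with si-Med23.

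The si-Elk1 arrays were not alike. Over the genes called lower, the median departure from the control mean was -0.38 with oligo A, -0.38 with oligo B and -0.97 with oligo C of si-Elk1, while the si-Med23 arrays lay between -1.18 and -1.0. Oligo C of si-Elk1 was also the si-Elk1 array with the lowest MED23 signal on the probe set used. Among the other MED23 probe sets it was the lowest si-Elk1 array on some, at 7.41 and 6.82. It was the highest on others, at 6.39 and 6.64, which were dim in control at 3.66 to 6.32. The knockdown array nearest to control was si-Elk1 oligo A for 44.4% of the genes called lower, si-Elk1 oligo B for 42.5% and si-Elk1 oligo C for 3.24%. Over all genes tested these shares were 26.8%, 28.6% and 11.4%, so oligo C was also the least often nearest of the 3 there. The shares of genes called lower describe genes chosen on the same arrays, and each oligo is 1 array with no replicate.

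Control probe sets also moved with the groups. The poly-A spikes, which are bacterial RNAs mixed into each sample ahead of labelling, averaged 7.61 in control, 9.22 with si-Med23 and 8.25 with si-Elk1, a pooled difference of 1.12 with all 6 knockdown arrays above control. Hybridization controls, added after labelling, differed by 0.34 in the same way. A two-sided exact permutation test over the 9 arrays gave p = 0.0238 for each, the smallest it allows, or 0.0595 after adjustment over 5 such measures. The ratio of 3' to 5' signal of ACTB, a sign of RNA integrity, differed by -0.04 (exact permutation p = 0.524), and that of GAPDH by -0.06 (exact permutation p = 0.0476, adjusted 0.0794). The 18S ribosomal RNA probe sets differed by 0.48 (exact permutation p = 0.143). The part of these differences in the gene results was not tested, but scaling to the spikes shifts every pooled change by -1.12 and scaling to the hybridization controls by -0.34, so that many list medians change sign. Every positive list median turned negative when scaled to the spikes, and when scaled to the hybridization controls all did except those of the interferon, NF-kB, complement and oxidative phosphorylation lists. The median pooled change of all genes was 0.08 as deposited.

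The cells read as epithelial. The summed signal of 17 lung epithelial markers ran from 64760 to 72760 in control, 88030 to 114100 with si-Med23 and 68000 to 87530 with si-Elk1, although SFTPD, NKX2-1 and AQP5 were under the filter level on every array. Most of that sum is signal of the keratins KRT7, KRT8 and KRT18, with KRT18 alone at 33975 to 37638 in control. The surfactant genes SFTPB and SFTPC read only 212 to 265 and 125 to 208 there. Of 9 endothelial markers, 6 were under that level throughout, VWF and CDH5 among them. Of 11 haematopoietic markers PTPRC was under it, and their sum ran from 917 to 1145 in control and from 1132 to 1808 over the knockdown arrays. Much of this difference is CD14, at 178 to 266 in control and 480 to 897 in the knockdowns. ITGAM read 203 to 250 and then 133 to 237. FCER1G was 48.6 to 79.8 in control, 56.2 to 90.2 with si-Med23 and 102 to 139 with si-Elk1. LYZ was 23.8 to 69.3, 3.9 to 23.5 and 57.6 to 61.1 in that order. The sum of 11 fibroblast markers was 2186 to 2287 in control, 3458 to 4798 with si-Med23 and 3202 to 4390 with si-Elk1, with COL3A1 and POSTN under the filter level. That rise lies mostly in COL1A1 (signal 586 to 637 in control, 1070 to 2690 in the knockdowns) and ACTA2 (1110 to 1143, then 1367 to 2175). THY1 read 126 to 165 in control, 159 to 197 with si-Med23 and 204 to 246 with si-Elk1. Other markers were dim or scattered. DCN was 19.2 to 174 in control, 7.4 to 15 with si-Med23 and 142 to 189 with si-Elk1. In the same order FAP was 18.5 to 129, 5.6 to 19.3 and 22.9 to 107. COL1A2 was 13.6 to 91.7, 7.3 to 13.7 and 54.2 to 77.9, and PDGFRA 8.3 to 39.5, 11.3 to 59 and 11.4 to 98.9.

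All 6 knockdown arrays lay above all control arrays for 1625 genes (12.9% of those tested) and below them for 1287 (10.2%). The pooled contrast passed for 3517 genes (27.9%), 1820 higher (14.4%) and 1697 lower (13.5%). Both conditions held for 1285 genes called higher (10.2%) and 1048 called lower (8.31%). The other 579 genes on one side did not pass, and 1184 genes that passed had overlapping arrays. A scaling that centred each array on its median moved the passed genes to 2399 higher and 1445 lower, scaling to the hybridization controls to 372 and 3847, and scaling to the poly-A spikes to 35 and 11236.

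Falls were deeper than rises among the genes called. The median change was 0.59 for genes called higher and -0.87 for those called lower, and 197 and 382 of them changed at least 2-fold. A gap of at least 1 between the nearest knockdown and control arrays was seen for 20 genes called higher and 3 called lower. At the edge of the rule, TLE1 lay 0.0001 above control and TSR2 touched it at 9.73, while KIF15 lay below it with a gap of -0.00032 and RASAL2 touched it at 9.84.

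Leaving out a control array lowered the number of genes called more than leaving out any knockdown array did. Fewer control arrays also make the fit less precise, and how far this alone lowered the counts was not tested. Without si-Ctrl replicate 3 the genes called were 408 higher and 280 lower, without replicate 1 they were 686 and 578, and without replicate 2 they were 796 and 730. Without si-Elk1 oligo C, the array that stood apart, they were 1275 and 1109.

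The 10 largest rises included the complement components C3 and CFB, the iron-carrier binding protein LCN2, the chemokine CCL20, and BMP4 with the helix-loop-helix inhibitor ID4. They are the called genes with the largest pooled change, counted with signals raised to the filter level of 6.05.

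C3, the component on which all complement pathways converge, read 8.22, 7.99 and 7.86 in control, 12.01, 11.01 and 12.67 with si-Med23, and 10.53, 10.54 and 10.85 with si-Elk1. No knockdown array came within 2.31 of a control array. The pooled change was 3.25 ± 0.31, or 9.48-fold (adjusted p = 0.00306), with 3.87 in si-Med23 and 2.62 in si-Elk1.

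CFB, the protease of the alternative complement pathway, was dim in control at 5.69, 6.56 and 5.15, and read 8.72, 7.99 and 9.47 with si-Med23 and 8.37, 7.72 and 8.32 with si-Elk1. Control and knockdown arrays were separated by 1.16. The pooled change was 2.63 ± 0.38 (adjusted p = 0.0056), or 2.21 once dim signals were raised to the filter level.

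LCN2, which binds bacterial siderophores, read 8.0, 8.18 and 8.24 in control, 10.74, 10.03 and 11.34 with si-Med23, and 9.74, 9.60 and 10.28 with si-Elk1. Every knockdown array was at least 1.36 above control, and the pooled change was 2.15 ± 0.27 (adjusted p = 0.00462). CCL20, the ligand of the chemokine receptor CCR6, read 7.25, 6.02 and 7.37 in control, 10.29, 8.40 and 8.52 with si-Med23, and 9.08, 9.70 and 9.50 with si-Elk1. Its arrays were more scattered, and the pooled change was 2.37 ± 0.46 (adjusted p = 0.011).

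BMP4, a secreted ligand of the TGF-beta superfamily, read 6.10, 4.07 and 5.51 in control, 7.95, 8.59 and 8.56 with si-Med23, and 7.96, 8.0 and 8.24 with si-Elk1. The knockdown arrays lay close together whichever gene was targeted. The pooled change was 2.99 ± 0.39 (adjusted p = 0.00479), but 2 control arrays were under the filter level, and with signals raised to it the change was 2.15.

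ID4, which blocks DNA binding by basic helix-loop-helix factors, read 7.73, 8.27 and 7.78 in control, 10.11, 9.47 and 9.71 with si-Med23, and between 10.99 and 11.01 with si-Elk1. This made a pooled change of 2.45 ± 0.17 (adjusted p = 0.00159). TNS1, a tensin that links integrins to actin, showed the lowest adjusted p of these 10 genes (0.000793), with a pooled change of 2.36 ± 0.14. It read 6.34, 6.55 and 6.14 in control, 7.57, 7.72 and 7.43 with si-Med23, and 9.84, 9.60 and 10.02 with si-Elk1. For both genes the si-Elk1 arrays were the higher ones, and the difference between the knockdowns passed its own test, at -1.24 for ID4 (adjusted p = 0.00775) and -2.25 for TNS1 (adjusted p = 0.000978). That difference is left out of the standard error of the pooled change. With the 6 knockdown arrays fitted as 1 group, TNS1 missed the threshold (limma, adjusted p = 0.061).

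CES1, a carboxylesterase that hydrolyses esters and drugs, read 8.03, 8.47 and 8.12 in control, 9.59, 9.52 and 10.39 with si-Med23, and 11.03, 10.99 and 11.30 with si-Elk1. It also stood higher with si-Elk1 (difference -1.27, adjusted p = 0.0121), and its pooled change was 2.27 ± 0.21. SMOC1, a secreted calcium-binding matrix protein, rose by 2.53 ± 0.48 (adjusted p = 0.0105) from a scattered control of 5.98, 7.87 and 5.61, and ACKR3, a chemokine receptor that does not signal through G proteins, by 2.10 ± 0.31 (adjusted p = 0.00577). The SMOC1 call was lost without si-Ctrl replicate 3 (adjusted p = 0.0522).

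Other genes were named for a large effect in both knockdowns or for a wide gap to control. ANG, the secreted ribonuclease angiogenin, changed by 2.05 with si-Med23 and 1.93 with si-Elk1. SPARC, a collagen-binding matricellular protein, changed by 2.27 and 1.79, and ASS1, the argininosuccinate synthase of arginine synthesis, by 2.17 and 1.78. Their gaps to control were 1.30, 1.36 and 1.34.

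**Figure D1:**
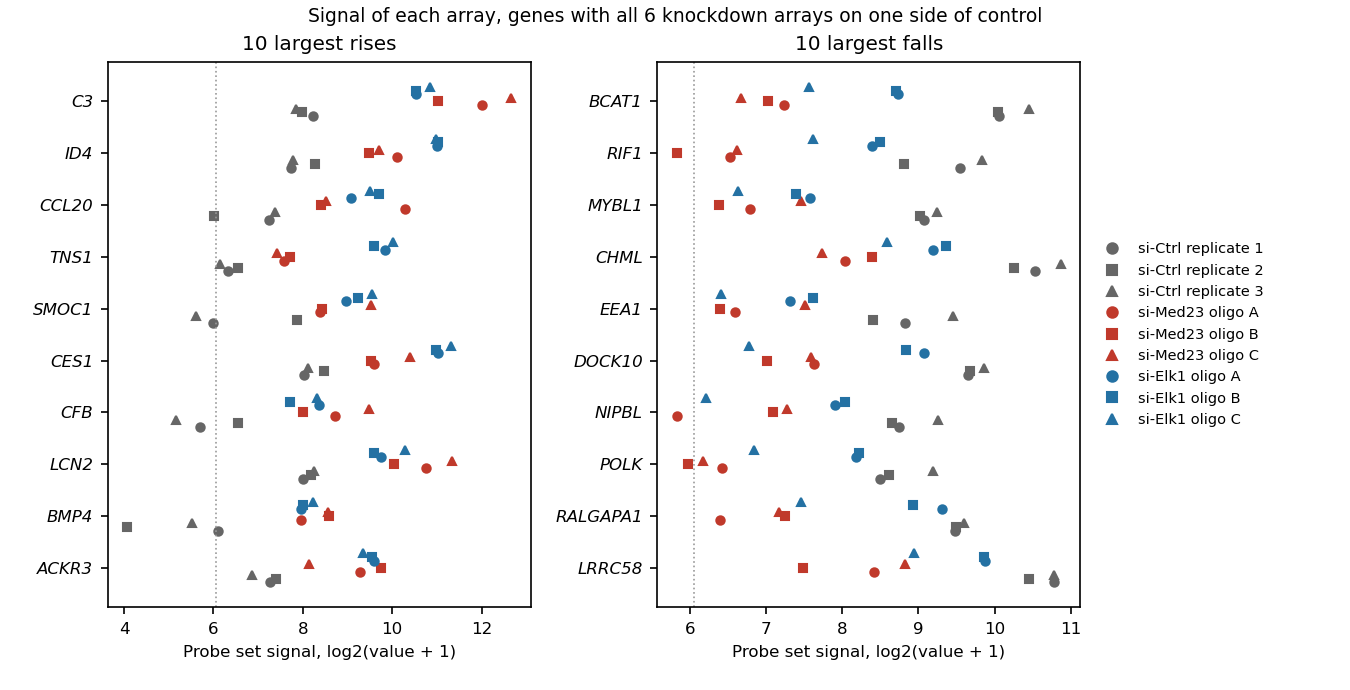
Signal of every array, as log2(value + 1), for the 10 called genes with the largest pooled rise (left) and the largest pooled fall (right); colour gives the group, shape the oligo or control replicate, and the dotted line the filter level of 6.05. C3 is separated from control by 2.31, and for BCAT1 si-Elk1 oligo C (7.56) lies nearer to the si-Med23 arrays than oligos A and B (8.73 and 8.71) do.

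The 10 largest falls included an enzyme of amino acid breakdown, a transcription factor, an endosome tether and proteins that act on chromosomes. BCAT1, the cytosolic aminotransferase of branched-chain amino acids, had the largest pooled fall of them. It read 10.06, 10.05 and 10.46 in control, 7.24, 7.02 and 6.67 with si-Med23, and 8.73, 8.71 and 7.56 with si-Elk1. All knockdown arrays were below control, with a gap of -1.31. The pooled change was -2.53 ± 0.27 (adjusted p = 0.00379), and the fall was the deeper with si-Med23 (difference -1.36, adjusted p = 0.022).

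MYBL1, the transcription factor A-MYB, read 9.07, 9.02 and 9.25 in control, 6.79, 6.37 and 7.46 with si-Med23, and 7.58, 7.39 and 6.63 with si-Elk1. The arrays of the knockdowns interleaved, and their difference did not pass (-0.32, adjusted p = 0.464). The pooled change was -2.07 ± 0.27 (adjusted p = 0.00479), and as the mean of all its probe sets it was -0.83.

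RIF1, which acts in replication timing and at DNA double-strand breaks, read 9.54, 8.82 and 9.84 in control, 6.52, 5.83 and 6.61 with si-Med23, and 8.39, 8.50 and 7.62 with si-Elk1. The si-Med23 arrays were the lower in every case, with a difference of -1.85 (adjusted p = 0.0112), and the pooled change was -2.15 ± 0.29. CHML, a Rab escort protein, read 10.53, 10.25 and 10.87 in control, 8.04, 8.39 and 7.74 with si-Med23, and 9.19, 9.37 and 8.59 with si-Elk1. Its pooled change was -2.00 ± 0.22 (adjusted p = 0.00421).

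EEA1, a tether of early endosomes, fell by 2.07 with si-Med23 and by 1.79 with si-Elk1. NIPBL, the cohesin loader, changed by -2.16 and -1.50, and POLK, a polymerase that copies damaged DNA, by -2.58 and -1.02. For each of these 3 genes si-Elk1 oligo C was the lowest si-Elk1 array: it read 6.40 against 7.30 and 7.61 for EEA1, 6.20 against 7.90 and 8.03 for NIPBL, and 6.84 against 8.18 and 8.22 for POLK. The NIPBL call was lost without any single control array (adjusted p = 0.0555 to 0.0945), and the EEA1 call without si-Ctrl replicate 3 (adjusted p = 0.0502).

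RALGAPA1, a subunit of the GTPase activator of Ral proteins, changed by -1.77 ± 0.38 and DOCK10 by -1.92 ± 0.46. Si-Elk1 oligos A and B were near control for RALGAPA1, at 9.31 and 8.93 against a lowest control of 9.48, while oligo C read 7.46. LRRC58, a leucine-rich repeat protein, read 8.42, 7.48 and 8.82 with si-Med23 against 10.45 to 10.78 in control, with a pooled change of -1.77 ± 0.31. The DOCK10 call did not hold for the mean of all its probe sets (-0.54, adjusted p = 0.365) nor without any single control array (adjusted p = 0.0558 to 0.0781), and RALGAPA1 lost its call without si-Ctrl replicate 3 (adjusted p = 0.063).

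Clearly separated falls of smaller size were CLTRN, GXYLT1 and SLC4A4. CLTRN, a partner of amino acid transporters, read 8.17, 8.13 and 8.26 in control, 6.70, 6.84 and 7.05 with si-Med23, and 5.97, 6.46 and 6.65 with si-Elk1, and its pooled change was -1.57 ± 0.16 (adjusted p = 0.00333). SLC4A4, a sodium bicarbonate cotransporter, was steady in control at 8.11, 8.14 and 8.11 and lay between 6.18 and 7.11 in the knockdowns. GXYLT1, a xylosyltransferase that extends sugars on Notch receptors, changed by -1.77 ± 0.39, and its call was lost without si-Ctrl replicate 2 (adjusted p = 0.0537) or 3 (adjusted p = 0.0696).

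Most called genes did not differ between the knockdowns by their own test, though a test that misses its threshold does not show equal effects. The difference between si-Med23 and si-Elk1 passed for 555 of the called genes (23.8%), against 21.7% of all genes tested. Of the genes called lower, 325 were lower with si-Med23 and 2 were lower with si-Elk1. Of the genes called higher, 196 were higher with si-Med23 and 32 with si-Elk1. The comparisons of each knockdown with control share the control arrays. Taken singly, si-Med23 passed for 39.8% of genes and si-Elk1 for 4.26%. Among the 10 largest falls, RIF1, NIPBL, POLK, RALGAPA1, DOCK10 and LRRC58 did not pass with si-Elk1 alone (limma, adjusted p = 0.0747 to 0.213). The same genes missed the threshold with the 6 knockdown arrays fitted as 1 group (limma, adjusted p = 0.0527 to 0.0860).

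**Figure D2:**
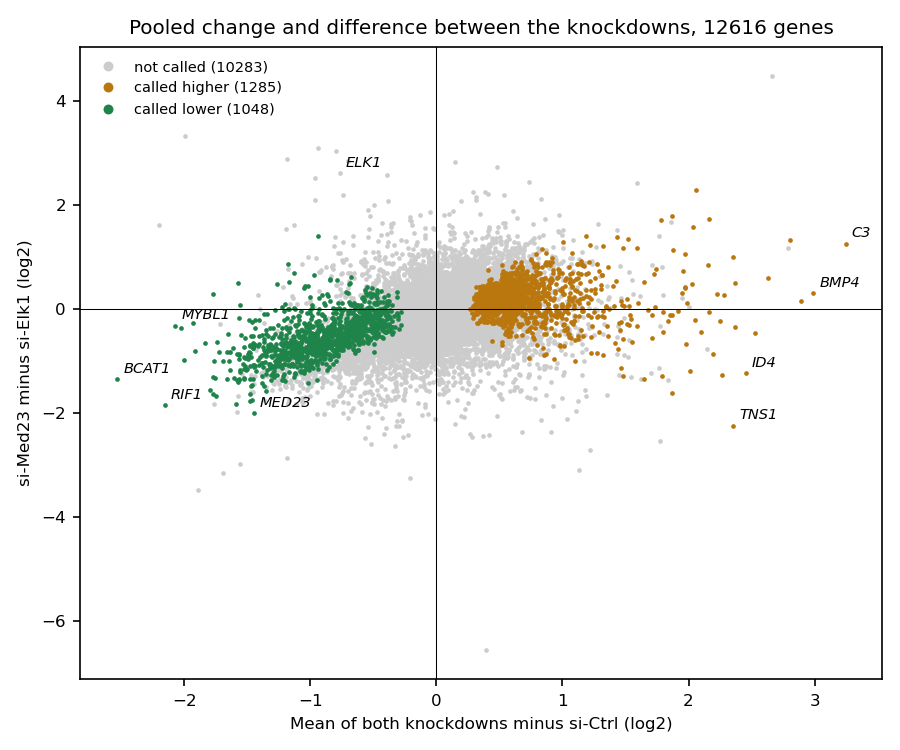
Pooled change of each of 12616 genes (x axis, log2) against the difference between si-Med23 and si-Elk1 (y axis, log2), with genes called higher in ochre and genes called lower in green. Genes called lower lie mostly under 0 on the y axis, with 325 passing as lower in si-Med23 and 2 as lower in si-Elk1.

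Gene lists were then read for how many members were called, against 10.2% called higher and 8.31% called lower over all genes. The counts are descriptions of lists drawn up with earlier results of these data known. Each list was also read in each array as the mean departure of its members from the control mean.

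Genes of G2/M and mitosis, which drive and execute cell division, had more members called lower than any other of the 29 lists. Of 48 tested, 29 passed lower and 0 higher by limma (30 and 0 at an unadjusted p of 0.05), 23 were called lower, and the median change was -0.70 against 0.08 for all genes. The list mean departed by -0.76, -0.89 and -0.91 with si-Med23 and by -0.34, -0.41 and -0.74 with si-Elk1, all under the control range of -0.09 to 0.09. Oligo C was again the lowest of the si-Elk1 arrays, and without it 24 members were called lower. Without si-Ctrl replicate 3, 13 were.

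CDK1, the kinase that triggers mitosis, read 12.67, 12.64 and 13.10 in control, 11.42, 11.14 and 11.40 with si-Med23, and 12.20, 12.07 and 11.89 with si-Elk1. Its groups did not overlap, and the pooled change was -1.12 ± 0.14 (adjusted p = 0.00462). NUF2, a subunit of the kinetochore complex that holds microtubules, changed by -1.33 ± 0.18 (adjusted p = 0.00487), by -1.71 with si-Med23 and -0.95 with si-Elk1.

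DNA repair genes showed the lowest list median, -0.86, among the 29 lists. Of 38 tested, 27 passed lower and 2 higher, and 17 were called lower. Their mean departure was -1.04, -1.15 and -1.0 with si-Med23 and -0.28, -0.27 and -0.75 with si-Elk1. Without si-Elk1 oligo C 17 were called lower, of 39 tested, and without si-Ctrl replicate 3 the count was 9.

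BRCA1, which directs homologous recombination, read 10.04, 10.17 and 10.33 in control, 8.44, 8.23 and 8.38 with si-Med23, and 9.31, 9.32 and 8.51 with si-Elk1. The arrays fell into control, then si-Elk1 oligos A and B, then the other 4. Its pooled change was -1.48 ± 0.19 (adjusted p = 0.00462), and that of BARD1, its partner in a ubiquitin ligase, was -1.19 ± 0.15 (adjusted p = 0.00462).

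Chromatin regulators and genes of G1/S and DNA replication fell in smaller numbers. Of 67 chromatin regulators, 18 passed lower and 4 higher, and 13 were called lower, with SUZ12, a core subunit of Polycomb complex PRC2, at -1.35 ± 0.20 and PHIP, a bromodomain protein, at -1.75 ± 0.27. The SUZ12 value was -0.55 as the mean of its probe sets (adjusted p = 0.0923). Of 39 G1/S genes, 10 passed lower and 0 higher by limma (14 and 3 at an unadjusted p of 0.05), with RFC3 of the clamp loader at -0.97 ± 0.17 and PRIM1, the catalytic primase subunit, at -0.52 ± 0.10. Without si-Ctrl replicate 3 these lists had 4 and 1 members called lower, and PRIM1 lost its call (adjusted p = 0.0659).

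Nuclear genes of oxidative phosphorylation, the respiratory chain and ATP synthase, moved the other way in small steps. Of 54 tested, 28 passed higher and 1 lower, the same numbers were called, and the median was 0.35, which was 0.01 with hybridization control scaling and turned to -0.77 with poly-A spike scaling. List means were 0.42, 0.43 and 0.38 with si-Med23 and 0.15, 0.12 and 0.41 with si-Elk1. Here too oligo C stood with the si-Med23 arrays. Without it 28 were called higher, while without si-Ctrl replicate 3 only 4 were.

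NDUFA13, a subunit of complex I, read 12.14, 12.23 and 12.27 in control, 13.14, 13.25 and 13.26 with si-Med23, and 12.70, 12.49 and 12.96 with si-Elk1. Its pooled change was 0.75 ± 0.12 (adjusted p = 0.00663), turning to -0.37 with poly-A spike scaling. NDUFB7, another complex I subunit, changed by 1.09 with si-Med23 and by 0.25 with si-Elk1, a difference that passed (adjusted p = 0.00644).

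Cytosolic ribosomal protein genes showed the gap between lying on one side and passing the test. Of 40 tested, 21 had all 6 knockdown arrays above control, against 12.9% of all genes, but only 5 passed. Their median of 0.27 was 0.003 after quantile normalization and turned to -0.07 with hybridization control and -0.85 with poly-A spike scaling. RPL8, a protein of the large subunit, changed by 0.47 ± 0.11, and RPS9, of the small subunit, by 0.40 ± 0.11, which turned to -0.19 as the mean of its probe sets. Leaving out single arrays gave 0 to 7 members called, and both genes lost the call without some single array, RPL8 without si-Ctrl replicate 1 or 3 (adjusted p = 0.0640 to 0.0785) and RPS9 without any of 5 arrays (0.0510 to 0.122). At an unadjusted p of 0.05, 32 were higher and 0 lower.

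The NF-kB and inflammatory list holds chemokines, cytokines and the inhibitors that NF-kB induces. Of 22 tested, 12 passed higher and 1 lower, 7 were called higher, and the median was 0.73, the highest of the 29 lists, turning to -0.40 with poly-A spike scaling alone. List means were 1.35, 0.87 and 1.51 with si-Med23 and 0.35, 0.39 and 0.48 with si-Elk1. CXCL8, the neutrophil chemokine interleukin-8, read 11.08, 11.06 and 11.24 in control, 13.42, 12.62 and 13.54 with si-Med23, and 12.15, 11.95 and 11.99 with si-Elk1. Its pooled change was 1.48 ± 0.19 (adjusted p = 0.00479), and it was the higher with si-Med23 by 1.17 (adjusted p = 0.0129). Leaving out single arrays gave 5 to 9 members called higher, 5 without si-Ctrl replicate 3.

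A kB site is the sequence that NF-kB dimers bind. It was searched for as the pattern GGGRNWYYCC on both strands of the 300 bases around each start site, 250 before and 50 after. In this pattern R is A or G, N any base, W A or T, and Y C or T. It occurred in 5 of the 7 called NF-kB list members, NFKBIA, CXCL1, CXCL3, CCL20 and LCN2, and in 6.76% of the 10259 promoters of genes tested. Over all genes called higher it occurred in 8.08%, and over those called lower in 5.59%. Uncalled members of the NF-kB list were not counted apart. Whether the site goes with the call or with membership of the list was not tested. The 5 sites are shown, with the site or its reverse complement in capitals, because they mark where these members match the same pattern upstream of the start. The capitals are the reverse complement in NFKBIA, CCL20 and LCN2. Sequences are RefSeq, GRCh38.p14, 5' to 3' on the gene's strand. CXCL1 and CXCL3 are near-identical neighbours, so their probe sets may share signal. The NFKBIA stretch is chr14:35404795-35404856 (minus strand), CXCL1 chr4:73869288-73869349 (plus), CXCL3 chr4:74038733-74038794 (minus), CCL20 chr2:227813737-227813798 (plus) and LCN2 chr9:128149252-128149313 (plus). A match describes letters only, and binding was not measured.
NFKBIA: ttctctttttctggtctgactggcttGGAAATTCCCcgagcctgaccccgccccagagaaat
CXCL1: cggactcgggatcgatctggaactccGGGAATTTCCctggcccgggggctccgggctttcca
CXCL3: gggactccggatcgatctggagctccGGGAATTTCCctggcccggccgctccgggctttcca
CCL20: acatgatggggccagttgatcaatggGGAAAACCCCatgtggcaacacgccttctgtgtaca
LCN2: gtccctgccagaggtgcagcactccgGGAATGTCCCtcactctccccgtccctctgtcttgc

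Complement and acute-phase genes belong to the soluble arm of innate defence. Of 15 tested, 8 passed higher and 1 lower, 7 were called higher, and the median was 0.62, turning to -0.50 with poly-A spike scaling alone. Their means were 0.73, 0.61 and 0.89 with si-Med23 and 0.88, 0.94 and 0.79 with si-Elk1. The list means of the 2 knockdowns overlapped, although 6 of the 15 genes differed between them by their own test. CFD, the factor D protease that activates factor B, read 9.17, 8.94 and 8.71 in control, 10.28, 10.25 and 10.83 with si-Med23, and 10.49, 10.21 and 10.48 with si-Elk1, a pooled change of 1.48 ± 0.17 (adjusted p = 0.00462). Leaving out single arrays left 6 or 7 members called higher.

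Interferon response genes passed higher in 9 of 20 and lower in 1, and 5 were called higher, with a median of 0.55 that turned to -0.57 with poly-A spike scaling alone. IFITM3, which blocks virus entry at endosomes, read 9.74, 9.59 and 9.47 in control, 11.12, 11.17 and 11.14 with si-Med23, and 10.25, 10.42 and 10.72 with si-Elk1. The si-Med23 arrays were the higher (difference 0.68, adjusted p = 0.0164). IFITM2 had a pooled change of 1.15 ± 0.12, though the IFITM genes are close copies whose probe sets may share signal. Among 13 genes that sense double-stranded RNA, 0 were called higher and 1 lower, the kinase TBK1 at -1.23 ± 0.30 (adjusted p = 0.0213), while 3 passed higher. Leaving out si-Ctrl replicate 1 or 3 ended the TBK1 call (adjusted p = 0.0707 to 0.0869), and without replicate 3 the interferon list held 3 members called higher.

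Hypoxia and glycolysis genes passed higher in 12 of 32 and lower in 0 by limma (16 and 1 at an unadjusted p of 0.05), and 11 were called higher, with a median of 0.31 that turned to -0.03 with hybridization control and -0.82 with poly-A spike scaling. EGLN3, an oxygen-sensing prolyl hydroxylase, changed by 1.45 ± 0.19 (adjusted p = 0.00487), and SLC2A3, the glucose transporter GLUT3, by 0.76 ± 0.13 (adjusted p = 0.00853). Without si-Ctrl replicate 3 the list held 4 members called higher.

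Mesenchymal and matrix genes passed higher in 7 of 22 and lower in 0 by limma (9 and 1 at an unadjusted p of 0.05), and 6 were called higher, with a median of 0.30 that turned to -0.04 and -0.83 under the same 2 scalings. MMP2, a gelatinase, read 7.10, 7.46 and 7.44 in control, 8.56, 8.51 and 8.61 with si-Med23, and 8.97, 9.27 and 9.38 with si-Elk1. It was the higher with si-Elk1 (difference -0.65, adjusted p = 0.0221). COL1A1, which carries much of the fibroblast marker sum given above, is itself a called member of this list. The fibroblast markers DCN and FAP were not raised with si-Med23. THY1 was 126 to 165 in control, 159 to 197 with si-Med23 and 204 to 246 with si-Elk1.

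Epithelial junction and keratin genes went both ways, with 6 of 23 called higher and 3 lower. CGN, the tight junction protein cingulin, was under the filter level in all control arrays at 3.99, 4.80 and 3.96 and read 6.90, 7.64 and 7.09 with si-Med23 and 6.91, 7.62 and 6.67 with si-Elk1. Its fitted change of 2.89 became 1.09 with signals raised to the filter level. JUP, plakoglobin of desmosomes and adherens junctions, changed by 0.81 ± 0.10 (adjusted p = 0.00471). Of 26 genes of TGF-beta signalling, 7 were called higher and 2 lower, with BMP2 at 1.23 ± 0.16. Leaving out si-Ctrl replicate 3 made these counts 4 and 0, and those of the junction list 6 and 2.

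Genes tied to the targeted pathway were called in both directions, where 10.2% of all genes tested were called higher and 8.31% lower. Of 23 genes of ERK pathway output, 4 were called higher and 2 lower. The fallen ones were EREG, an EGF receptor ligand, at -1.52 ± 0.25 (adjusted p = 0.00705), and SPRED1, an inhibitor of RAS signalling, at -0.88 ± 0.13 (adjusted p = 0.0056). SPRED1 was -0.34 as the mean of its probe sets (adjusted p = 0.347). EREG read 12.15, 12.11 and 11.94 in control, 10.06, 9.56 and 10.61 with si-Med23, and 11.08, 11.41 and 10.55 with si-Elk1.

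Of 22 immediate-early genes, which serum and ERK signals switch on within minutes, 4 were called higher and 1 lower. The AP-1 subunit FOSL2 changed by 1.03 with si-Med23 and 0.26 with si-Elk1 (difference 0.77, adjusted p = 0.00577), and ZFP36, which promotes decay of AU-rich messenger RNAs, by 0.67 and 1.0. Of 17 components of the cascade, 3 were called higher and 1 lower: SOS1, the RAS exchange factor, changed by -0.93 ± 0.20 (adjusted p = 0.0148), and KSR1, a scaffold of the cascade, by 0.48 ± 0.13 (adjusted p = 0.0274), which was 0.13 as the mean of its probe sets (adjusted p = 0.647). SRF and MRTF cytoskeletal targets gave 4 called higher and 0 lower of 17, with ITGA5, an integrin of the fibronectin receptor, at 0.69 ± 0.11 and smooth muscle actin ACTA2 at 0.62 ± 0.16. Both turned negative with poly-A spike scaling, to -0.43 and -0.51, and 1 of this list passed lower. With si-Ctrl replicate 3 left out, the members called higher and lower were 0 and 2 of ERK pathway output, 2 and 0 of immediate-early genes, 0 and 0 of the cascade and 1 and 0 of SRF and MRTF targets. SOS1 then had an adjusted p of 0.0691 and KSR1 of 0.119, and ACTA2 lost its call without any single control array (0.0695 to 0.0908). As the mean of its probe sets, SOS1 was -0.77 (limma, adjusted p = 0.0991).

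Subunits of Mediator itself were called in both directions, where 18.5% of all genes tested were called in one or the other. Of 29, 3 passed higher and 6 lower, and MED12 was called higher and MED4, MED7, MED13 and MED21 lower; the list leaves out the targeted MED23. MED13, of the kinase module, read 10.40, 10.23 and 10.66 in control, 8.71, 8.89 and 8.71 with si-Med23, and 10.19, 10.02 and 9.33 with si-Elk1. Its pooled change was -1.13 ± 0.19 (adjusted p = 0.00803), with a gap to control of -0.04. MED21, of the middle module, changed by -0.44 with si-Med23 and -0.54 with si-Elk1. Of 6 ternary complex and SRF factors, a list without the targeted ELK1, none was called in either direction. By limma MRTFA passed higher (0.45, adjusted p = 0.0347), and ELK4 (-1.03, adjusted p = 0.0274) and MRTFB (-0.67, adjusted p = 0.0427) passed lower, or 2 higher and 3 lower at an unadjusted p of 0.05. In the RNA interference machinery 1 of 16 was called higher, SND1 at 0.46 ± 0.11, and 2 lower. One was DICER1, which processes microRNAs, at -1.47 ± 0.31, or -0.75 as the mean of its probe sets (adjusted p = 0.099). When si-Ctrl replicate 3 was left out, 1 Mediator subunit and 0 genes of RNA interference were called lower and none higher, with adjusted p values of 0.067 for MED21, 0.0601 for DICER1 and 0.0863 for SND1.

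Stress and metabolic lists were mixed, where 10.2% of all genes tested were called higher and 8.31% lower. The p53 target list had 7 of 25 called higher, BTG1, an antiproliferative factor, among them (0.61 ± 0.09), and 3 lower, the p53 ubiquitin ligase MDM2 among them (-0.84 ± 0.12). MDM2 was -0.12 without probe sets that match several transcripts (adjusted p = 0.713). NRF2 targets had 6 of 30 called higher and 3 lower, with the epoxide hydrolase EPHX1 at 1.41 ± 0.18 and the cystine transporter SLC7A11 at -1.23 ± 0.24. Apoptosis regulators had 3 of 24 called higher, among them BCL2L11 (BIM) at 0.72 ± 0.15 and BCL2L1 (BCL-XL) at 0.54 ± 0.12, and 2 lower. The p53, NRF2 and apoptosis lists without si-Ctrl replicate 3 held 2, 1 and 0 members called higher and 2, 0 and 0 called lower. SLC7A11 (adjusted p = 0.0581), BCL2L11 (0.0559) and BCL2L1 (0.0582) then missed the threshold.

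In the ATF4 and unfolded protein list, 5 of 34 were called higher and 4 lower, with SDF2L1, a protein of the endoplasmic reticulum, at 0.98 ± 0.18 and PSAT1 of serine synthesis at -0.71 ± 0.14. Sterol and fatty acid synthesis had 1 of 24 called higher, NSDHL at 0.52 ± 0.09, and 5 lower, with the sterol carrier STARD4 at -1.36 ± 0.26. Mitochondrial ribosomal proteins gave 3 and 5 of 55, with MRPL39 at -0.60 ± 0.10 and MRPL1 at -0.65 ± 0.12. MRPL39 was -0.87 as the mean of its probe sets and did not pass (limma, adjusted p = 0.157). Proteasome subunits gave 0 and 2 of 28, PSMD1 at -0.35 ± 0.10 and PSMC6 at -0.55 ± 0.17, and SR proteins and hnRNPs 0 and 2 of 33, HNRNPH3 at -0.79 ± 0.15 and SRSF10 at -0.43 ± 0.13. In each of these last 2 lists 1 member passed higher without being called. Over all genes tested 10.2% were called higher and 8.31% lower. The proteasome list and the SR and hnRNP list were under both shares. Mitochondrial ribosomal proteins were under the first and near the second. These 5 lists without si-Ctrl replicate 3 held 1, 1, 0, 0 and 0 members called higher and 0, 0, 1, 0 and 0 called lower, in the order given. PSAT1, STARD4, MRPL1, PSMD1, PSMC6, HNRNPH3 and SRSF10 each lost the call without some single control array.

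**Figure D3:**
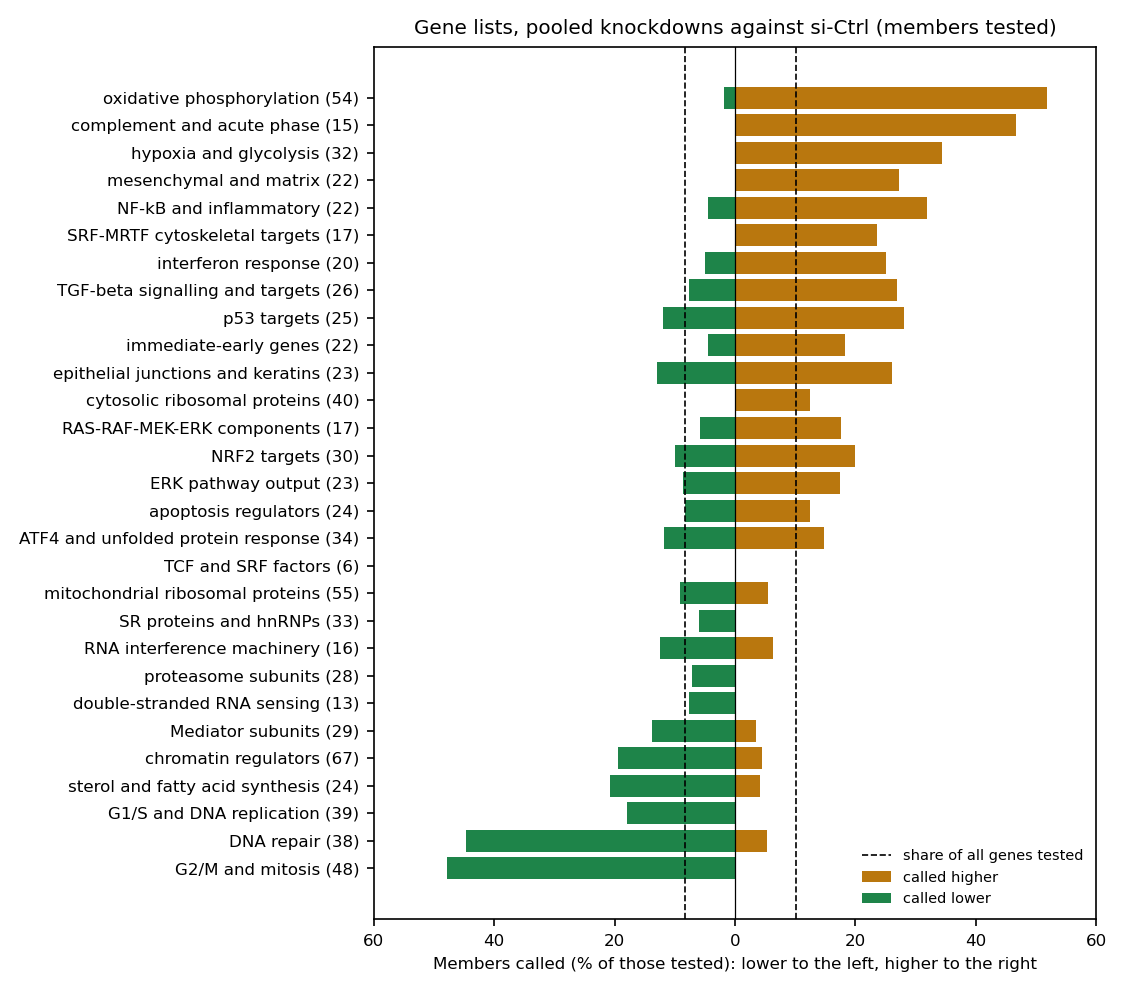
Share of tested members called higher (right) and called lower (left) in each of 29 gene lists, with the number tested in brackets and dashed lines at the shares of all genes, 10.2% and 8.31%. Oxidative phosphorylation (28 of 54 called higher) and G2/M and mitosis (23 of 48 called lower) lie at the ends; with poly-A spike scaling all positive list medians turn negative.

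**Figure D4:**
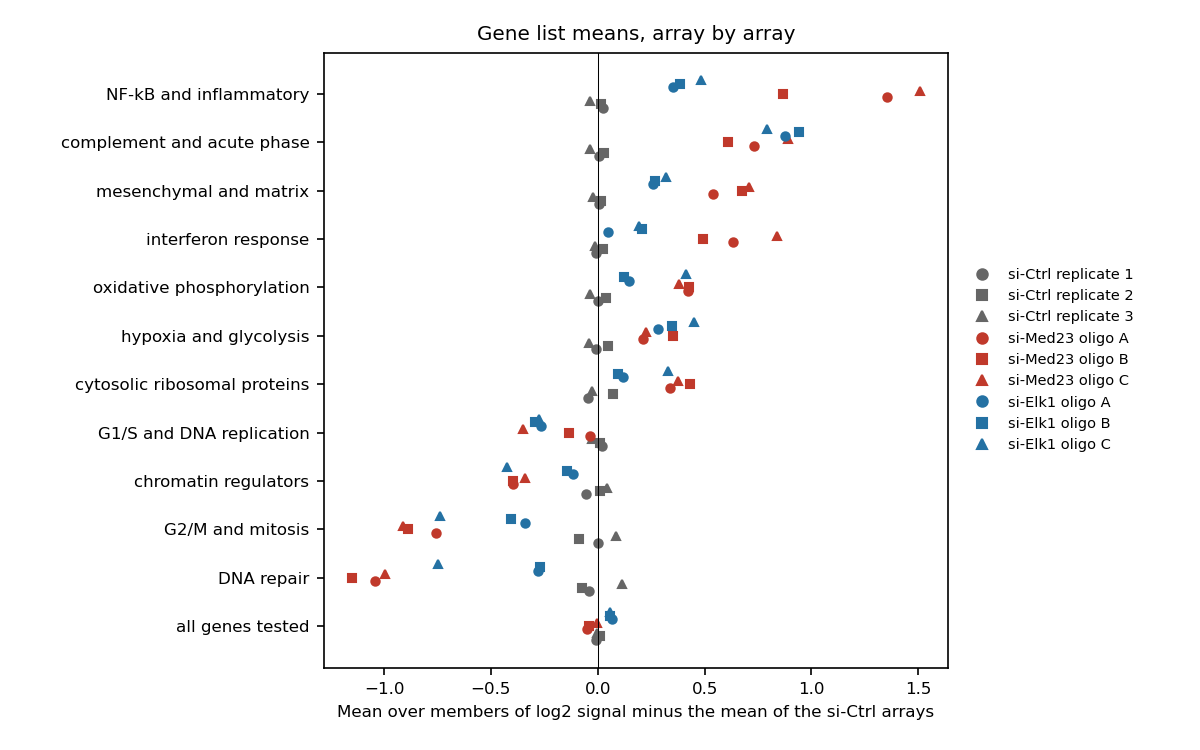
Mean over list members of log2 signal minus the mean of the si-Ctrl arrays (x axis), for 11 lists and all genes tested, with 1 point per array. In DNA repair, G2/M and oxidative phosphorylation, si-Elk1 oligo C (-0.75, -0.74 and 0.41) lies apart from oligos A and B; the lists drawn above 0 turn negative in median with poly-A spike scaling.

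Genes called in opposite directions differed in length. Genomic span, from start to end of the gene in RefSeq, had a median of 19.0 kb for genes called higher, 49.9 kb for those called lower and 29.0 kb for all tested. Of genes under 5 kb, 16.6% were called higher and 1.66% lower. Between 50 and 100 kb the shares were 7.39% and 13.1%, and over 200 kb they were 6.42% and 8.61%. The median pooled change fell from 0.25 under 5 kb to -0.10 between 100 and 200 kb, with values of 0.30 and -0.17 in si-Med23 and 0.20 and -0.07 in si-Elk1. These are descriptions over genes, which are not independent, and how span relates to the lists above was not tested.

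**Figure D5:**
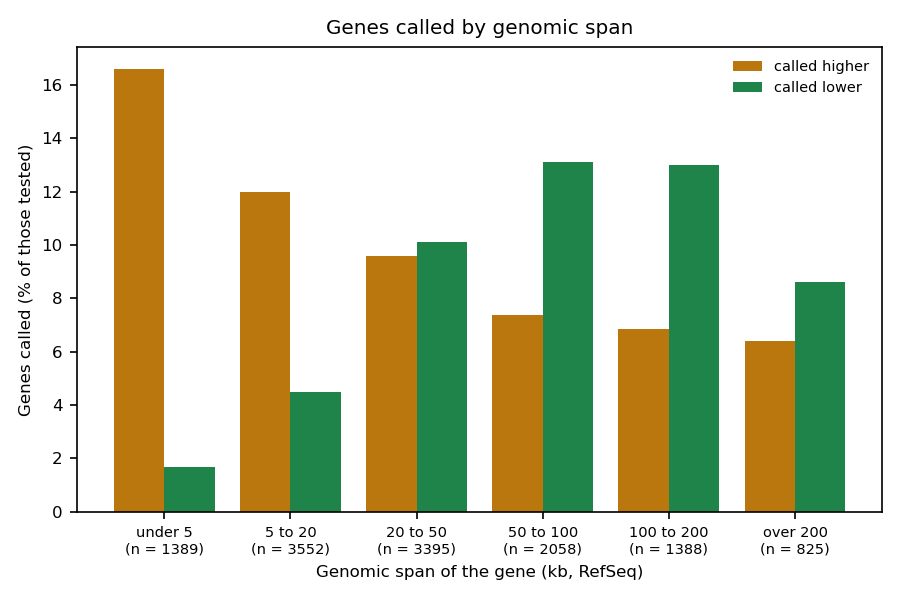
Share of genes called higher (ochre) and called lower (green) by genomic span of the gene in kb, with the number of genes tested under each bin. The share called higher runs from 16.6% under 5 kb to 6.42% over 200 kb, and the share called lower from 1.66% to 13.1% between 50 and 100 kb and 8.61% over 200 kb.

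ETS factors such as ELK1 bind a GGAA core, and the 8-letter form CCGGAAGT was searched for on both strands of the same windows. It occurred in 6.25% of promoters of genes called higher, 11.6% of those called lower and 8.54% of all tested. Many ETS factors share this core, so a match does not single out ELK1. Among list members called lower with a promoter in the table, it occurred in 4 of 22 of G2/M and mitosis and 5 of 16 of DNA repair. Uncalled members of these lists were not counted apart. Whether the letters go with the call or with membership of the lists was not tested. A CArG box, the SRF site, occurred in 1.06% and 1.32% of promoters of genes called higher and lower, against 0.994% of all. The AP-1 site TGACTCA occurred in 2.69% and 2.74%, against 2.98%.

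Of the matches in fallen members, 4 are shown with the motif, or its reverse complement, in capitals, because they carry the ETS letters upstream of genes of mitosis (KIF14 and DLGAP5) and of repair (RAD50 and POLQ). They were chosen for the motif among list members already called lower on these arrays. The KIF14 stretch is chr1:200620795-200620854 (minus strand), DLGAP5 chr14:55191598-55191657 (minus), RAD50 chr5:132556796-132556855 (plus) and POLQ chr3:121546064-121546123 (minus), from RefSeq, GRCh38.p14. The motif ends 69 bases before the start site in KIF14, 38 in DLGAP5, 147 in RAD50 and 101 in POLQ.
KIF14: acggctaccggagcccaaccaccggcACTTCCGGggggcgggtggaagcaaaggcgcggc
DLGAP5: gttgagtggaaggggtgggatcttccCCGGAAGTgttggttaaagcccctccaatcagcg
RAD50: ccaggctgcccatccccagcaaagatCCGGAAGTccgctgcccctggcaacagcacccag
POLQ: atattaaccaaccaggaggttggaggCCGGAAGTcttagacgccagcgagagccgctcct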

How the data were processed

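Labelled RNA of 9 A549 samples was hybridized to Affymetrix human genome arrays, 3 per group, per the labels. The authors deposited intensities, 1 linear signal per probe set. Per the submitters' processing notes, RMA and MAS5 were used, in roles that are not given. The 2% trimmed mean of each array is about 500, a scaling that removes any change in total messenger RNA. Genome build and scan date are not given in the sources used here.

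Of 54675 probe sets, 41091 name 1 gene in the platform annotation, 1801 several and 11721 none; each gene took its probe set with the highest mean. Of 19775 genes, 12616 had a mean at or above the median over probe sets, which was log2 6.05 or a signal of 65.4, and were tested. Limma 3.58.1 in R 4.3.3 fitted the 3 groups to log2(value + 1), with no block, and p-values were adjusted by Benjamini-Hochberg. The fit was tested on simulated data.

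The text names MED23, ELK1 and, among called genes, the 10 largest rises and falls, the 5 in each direction with the largest smaller effect of the 2 knockdowns, the 5 with the widest gap, and up to 2 per gene list by p. Genes at the edge of the rule, single Mediator, SRF-related and marker genes, and genes shown for a promoter motif were named after their values were seen. The members and gene lists were chosen with earlier results of these data known. Same-numbered arrays did not deviate together (correlations of -0.18 to 0.05), so numbers were not used as a block. Promoter windows are from RefSeq, GRCh38.p14, and matched 10259 of the genes tested. Protein lengths were not analysed here. The number of arrays limits precision.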

Additional observations from a re-analysis of the deposited data

Results flagged for a closer look

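Of the 79 genes named, 35 differed between the knockdowns by the test of the difference itself (limma, adjusted p from 0.000978 to 0.0493), and values here are si-Med23 minus si-Elk1 on the log2 scale. Of the targeted genes, MED23 differed by -2.01 and ELK1 by 2.61. Genes that rose in the pooled contrast and stood higher with si-Med23 were C3 (1.25), SND1 (0.49), IFITM3 (0.68), IFITM2 (0.67), CXCL8 (1.17), FOSL2 (0.77), NSDHL (0.84), RPL8 (0.44), NDUFA13 (0.50), NDUFB7 (0.84) and JUP (0.48). Genes that rose and stood higher with si-Elk1 were ID4 (-1.24), TNS1 (-2.25), CES1 (-1.27) and MMP2 (-0.65). The fallen genes in this set were all lower with si-Med23: among them were BCAT1 (-1.36), RIF1 (-1.85), CHML (-0.99), POLK (-1.56), RALGAPA1 (-1.63), LRRC58 (-1.32), MED13 (-1.08), SPRED1 (-1.07) and EREG (-0.94). The others were RFC3 (-0.64), CDK1 (-0.73), NUF2 (-0.76), SLC7A11 (-0.97), MRPL39 (-0.54), MRPL1 (-0.46), HNRNPH3 (-0.75), SUZ12 (-0.91) and PHIP (-1.67). For these genes the pooled change is a mean of unequal effects.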

How the results depend on the processing

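Over all alternatives the named genes gave 1594 values with the same direction and call of 1761, 149 that missed the threshold and 18 that changed sign. Counts of genes passing (1820 higher, 1697 lower) became 354 and 284 at an adjusted p of 0.01, 240 and 520 at 2-fold, 737 and 677 with no filter, 432 and 233 with the 6 knockdown arrays as 1 group, 372 and 3847 when scaled to the hybridization controls, and 35 and 11236 when scaled to the spikes. All 6 arrays then lay above control for 298 and 6 genes and below for 2735 and 6603 under those scalings, in that order. The mean of all probe sets gave 1164 higher, and leaving out probe sets that match several transcripts gave 1038 higher and 1053 with all arrays above. With the replicate number as a block, the counts were 1057 and 1064, although the numbers do not pair the arrays. Leaving out single arrays gave 421 to 1737 higher and 294 to 1774 lower, the lowest without si-Ctrl replicate 3, and 1696 to 2211 genes above and 1337 to 1640 below. Of the 79 named genes, 27 missed the test's threshold without some single array, ELK1 among them. With the 6 knockdown arrays as 1 group, 32 of the 79 missed it, MED23 and TNS1 among them. RPS9 turned to -0.19 as the mean of its probe sets. Poly-A spike scaling turned SND1 to -0.66, FOSL2 to -0.48, ZFP36 to -0.29, KSR1 to -0.65, ITGA5 to -0.43, ACTA2 to -0.51, BTG1 to -0.52, BCL2L11 to -0.40, BCL2L1 to -0.59, SDF2L1 to -0.15, NSDHL to -0.60, SLC2A3 to -0.36, RPL8 to -0.65, RPS9 to -0.73, NDUFA13 to -0.37, NDUFB7 to -0.45 and JUP to -0.31; these scalings subtract the shifts of the control probe sets. The cause of the other changes was not tested. Signals near the filter level have uncertain sizes.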
